A study of Mus musculus with 12 samples.

Results

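Interferon-stimulated genes and genes of MHC class I antigen presentation were examined in sorted cells of the mouse dorsal root ganglion (DRG), chosen to be sensory neurons, at the L6S1 and the L345 levels. The 41 genes were given as a list of symbols, and all 41 were found among the 41388 genes of the count tables. Of these, 39 had enough reads to be tested, among 15281 genes tested in all. Oas3 had 0 counts in all 12 libraries and Oas2 lay between 0 and 0.625 CPM, so neither was tested. CPM is the count scaled to a common library total with TMM factors, which correct for library composition.

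The 12 libraries formed 4 groups of 3: female L6S1 with libraries A, B and C, male L6S1 with A, B and C, female L345 with B, C and D, and male L345 with A, B and C. L6S1 pools ganglia of levels L6 and S1, and L345 pools those of L3, L4 and L5. All groups were C57BL/6 mice of 3 months with the RetFloxedEGFP allele, which carries EGFP behind a floxed copy of Ret, and Scn10a-tm2(cre)Jnw, which expresses Cre from the locus of the sodium channel NaV1.8. Cells were sorted by EGFP, so that all groups, L345 included, carry the recombined Ret copy. The sort selects NaV1.8-lineage cells with an active Ret locus, but markers of other cell types were present in every library. Each library was a pool of 2 to 8 mice and 12 to 32 ganglia. The labels of male L345 C disagree on its number of mice (5 or 3). The sources used here do not say if L6S1 and L345 pools shared animals, and p-values measure the spread between pools. The titles of female L6S1 B, female L6S1 C, male L6S1 C and female L345 D have another form than those of the other 8 libraries, and their genotype fields each name only one of the alleles.

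Interferons are secreted proteins that bind receptors that signal through JAK kinases, and type I interferons are made by cells that sense viral or displaced nucleic acids. Type I interferon acts mainly through interferon-stimulated response elements in promoters, whereas type II interferon acts mainly through gamma-activated sites. The induced genes block viral entry, translation and replication, and also raise the peptide-loading machinery and the class I molecules that show peptides to CD8+ T cells. Neurons at rest are known for low class I expression, and sensory neurons can respond to interferon by sensitisation.

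The promoters of the members were searched for both elements. RefSeq promoters (GRCm38.p6, 250 bases before to 50 bases after the start site) were matched for 30 of the 41 members. The core of the interferon-stimulated response element is GAAA and GAAA with any 2 bases between. It was found on either strand in 14 of these 30 members (46.7%), and in 3.99% of all 27025 genes with promoters of that length. The core of the gamma-activated site is TTC and GAA with any 3 bases between, a palindrome that matches both strands at once. It was found in 8 of the 30 members (26.7%), and in 9.55% of all genes. A gene counted once if any of its promoters matched. Bst2, Eif2ak2, Gbp7 and Irf2 held both. A match is a description of the letters, not a proof of binding. The stretches below are shown because they place the elements in genes whose levels are described further on. Capitals mark the match, the response element or its reverse complement in the first 5 and the gamma-activated site in Irf1.
Isg15 (chr4:156200835-156200936, minus strand): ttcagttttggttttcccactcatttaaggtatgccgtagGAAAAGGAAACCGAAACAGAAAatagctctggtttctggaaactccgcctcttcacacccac
Ifit1 (chr19:34640745-34640853, plus strand): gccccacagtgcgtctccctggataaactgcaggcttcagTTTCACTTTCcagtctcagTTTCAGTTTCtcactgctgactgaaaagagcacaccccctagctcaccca
Rsad2 (chr12:26456523-26456612, minus strand): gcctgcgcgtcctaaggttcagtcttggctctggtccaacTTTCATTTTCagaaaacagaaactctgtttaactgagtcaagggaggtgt
Stat2 (chr10:128270248-128270325, plus strand): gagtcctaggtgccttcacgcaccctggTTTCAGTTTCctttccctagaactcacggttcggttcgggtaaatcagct
B2m (chr2:122147508-122147597, plus strand): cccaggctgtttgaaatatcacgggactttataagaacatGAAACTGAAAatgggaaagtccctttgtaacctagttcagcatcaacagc
Irf1 (chr11:53769884-53769972, plus strand): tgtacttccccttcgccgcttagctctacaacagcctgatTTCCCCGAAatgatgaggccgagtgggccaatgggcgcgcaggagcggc
In Isg15 3 overlapping matches begin 78, 72 and 66 bases before the start site, and in Ifit1 2 matches begin 104 and 85 bases before it. Among tested members, the median level effect was -0.02 (log2) for the 13 with the response element core and -0.03 for the 16 matched members without it.

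Depth and purity bear on all values. Total counts ranged from 16176436 to 26694404, and 3 counts corresponded to 0.112 to 0.185 CPM. Sensory neuron markers summed to between 21118 and 29418 CPM in L6S1 libraries, against 19091 to 20887 CPM in L345 libraries, with Calca, the gene of the neuropeptide CGRP, the most abundant. Of these 14 markers Tac1, the gene of substance P, and Trpv1, the capsaicin receptor gene, rose at L6S1 by edgeR. Each missed the threshold in 7 or 9 of the 12 leave-one-out fits, and the median effect of the markers was -0.07. Over all tested genes 1.45% rose, with a median of -0.06. Scn10a averaged 429 ± 66.5 CPM at L6S1 and 573 ± 96.0 CPM at L345 (SD, n = 6 each; edgeR adjusted p = 0.101), and Ret averaged 171 ± 29.8 CPM over all libraries (SD, n = 12). The leukocyte gene Ptprc stayed at 0.0423 to 1.13 CPM in L6S1 libraries, against 0.0375 to 0.186 CPM in L345 libraries. Across all tested genes 473 (3.10%) were more than 2-fold below the lowest of the other 10 libraries in both female L6S1 B and female L6S1 C, whereas 12 (0.0785%) were more than 2-fold above the highest of the others in both, so values without them are given beside the results that they move most. In bulk samples fewer cells of a type and less RNA per cell cannot be told apart.

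Most members were detected in these libraries. Per kilobase of gene length, 12 members had a mean of at least 10 RPKM over the 12 libraries, 32 had at least 1 RPKM, and 9 had less. Ifi27, a mitochondrial membrane protein of the interferon response, was highest at 330 ± 66.6 RPKM, next to B2m, the light chain of class I molecules, at 309 ± 49.8 RPKM (SD, n = 12). These neighbours differed by less than their spread. H2-D1, a class I heavy chain, had 130 ± 52.8 RPKM. Ifi35 at 29.1 ± 8.38, Oasl2 at 27.8 ± 6.32, H2-K1, the other classical heavy chain, at 26.2 ± 5.09 and Ifit1 at 24.8 ± 11.4 RPKM lay within each other's spread. At the low end stood Mx1 at 0.118 RPKM, whose allele is defective in most laboratory mouse strains, and Oas2 at 0.0295 RPKM. H2-D1 and H2-K1 resemble each other and other class I genes, so their split of reads is uncertain.

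**Figure D1:**
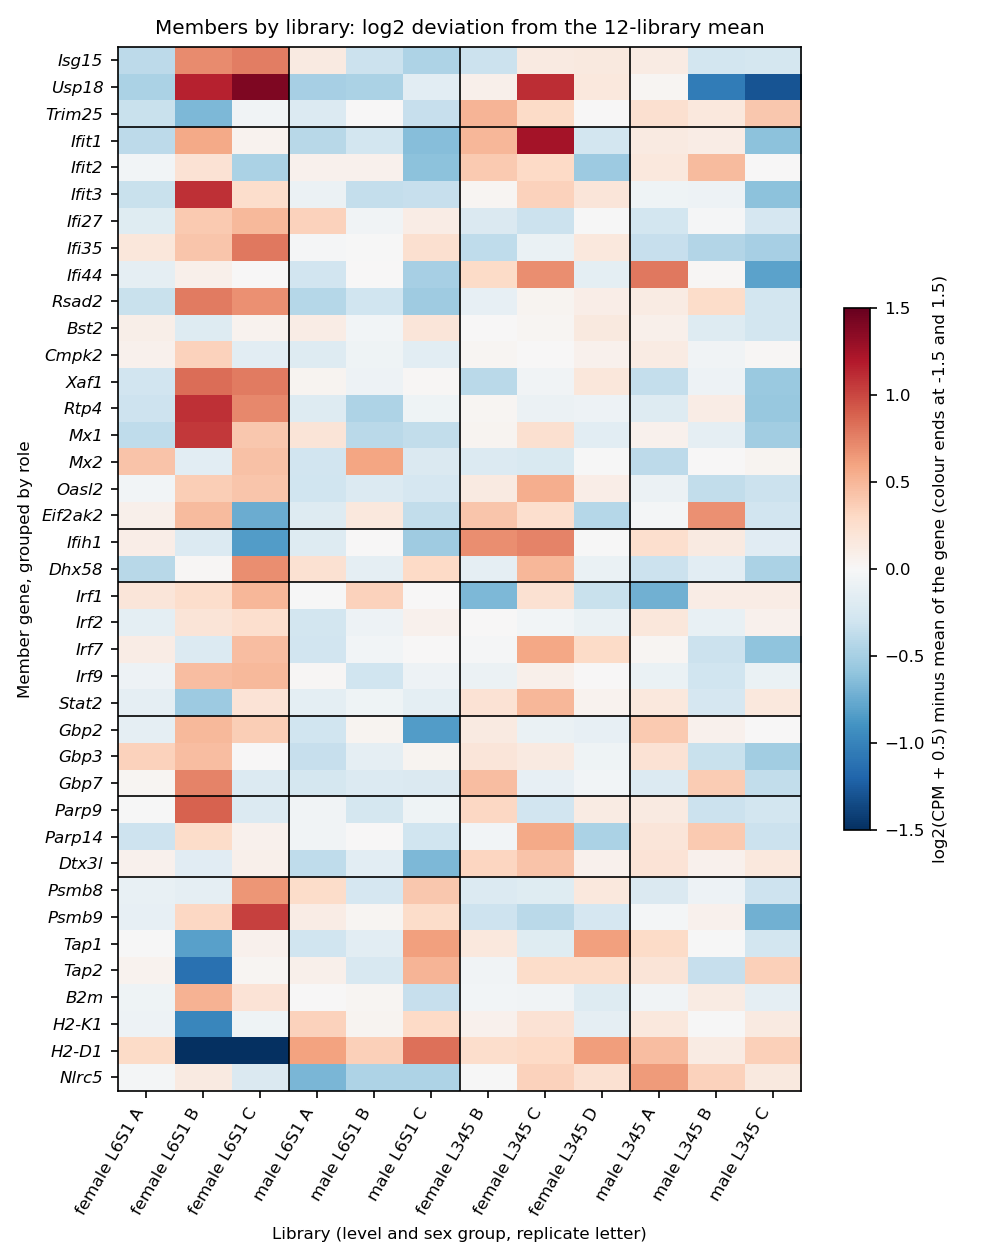
Heat map of the 39 tested members (rows, grouped by role) in the 12 libraries (columns, L6S1 left of L345). Colour gives log2(CPM + 0.5) minus the gene's mean over the libraries. No block of colour separates the 6 L6S1 columns from the 6 L345 columns, while female L6S1 B and C are red for many members and deep blue for H2-D1.

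Interferon genes themselves were nearly silent. Of 21 interferon genes listed, none had enough reads to be tested and 17 had 0 counts in all 12 libraries, among them Ifnb1, the main type I interferon of non-immune cells, and Ifng, the type II interferon. With 3 counts as the limit that a count of 0 allows, each of these lay under 0.185 CPM in every library. The receptor and kinase genes were present. The type I receptor subunit Ifnar1 averaged 48.9 ± 7.83 CPM and the type II receptor subunit Ifngr1 averaged 25.1 ± 4.12 CPM (SD, n = 12). Their level effects were -0.26 ± 0.13 and 0.17 ± 0.15 (log2 ± SE; edgeR adjusted p = 0.217 and 0.493). Of 10 tested receptor, JAK and STAT genes none was called, with a median of -0.26. Of 9 tested negative regulators of the pathway none was called, with a median of -0.23. Over all tested genes 2.33% were called, with a median of -0.06.

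No member passed the test between the levels. The level effect is L6S1 minus L345 with the sexes weighted equally, tested with the edgeR quasi-likelihood F-test and called at an adjusted p under 0.05 over all genes. Of the 39 members 0 were called, where 356 of all tested genes (2.33%) were, 1.45% higher and 0.877% lower at L6S1. At an unadjusted p under 0.05 there were 8 members (20.5%), beside 26.6% of all genes, 4 of them higher and 4 lower at L6S1. Other tools called more members and more genes. DESeq2 called 5 members (12.8%; Dtx3l, Ifi35, Nlrc5, Psmb9 and Trim25), beside 9.93% of all genes. The limma-voom fit called 9 members (23.1%; Dtx3l, H2-D1, Ifi27, Ifi35, Ifih1, Nlrc5, Stat2, Trim25 and Xaf1), beside 21.4% of all genes. The members' effects ran from -0.75 to 0.63 with a median of 0.00, beside -0.06 over all genes. For 33 of 39 members (84.6%) the effect was smaller than 0.5 in size, as it was for 81.4% of all genes. In no member were all L6S1 values on one side of all L345 values, as they were for 495 of all tested genes (3.24%).

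The count of 0 rested on the choice of libraries. Without female L6S1 A, 10 members were called (25.6%; 5 higher, 5 lower), beside 25.7% of all genes. The count was 1 (2.56%; Trim25) without female L6S1 C, beside 1.67% of all genes. It was 2 (5.13%; Ifi35, Trim25) without female L345 D, beside 5.63% of all genes. In the other 9 fits that left out a library it was 0, beside 0.510% to 1.57% of all genes. Without female L6S1 B and C together, 10 of 40 tested members were positive and 30 negative, with a median of -0.15. Over all genes 47.1% were positive, with a median of -0.02. That fit leaves 1 female L6S1 library, which is assumed to vary like the others. With all libraries 20 members were positive and 19 negative, beside 44.5% positive over all genes. The 8 libraries of the first title form also keep female L6S1 A as the only female L6S1 library. Within them 10 members were positive and 30 negative, beside 47.1% positive over all genes. Trim25 had an effect of -0.58 ± 0.14 there. The other title form has 1 L345 library and gave no value of its own.

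**Figure D2:**
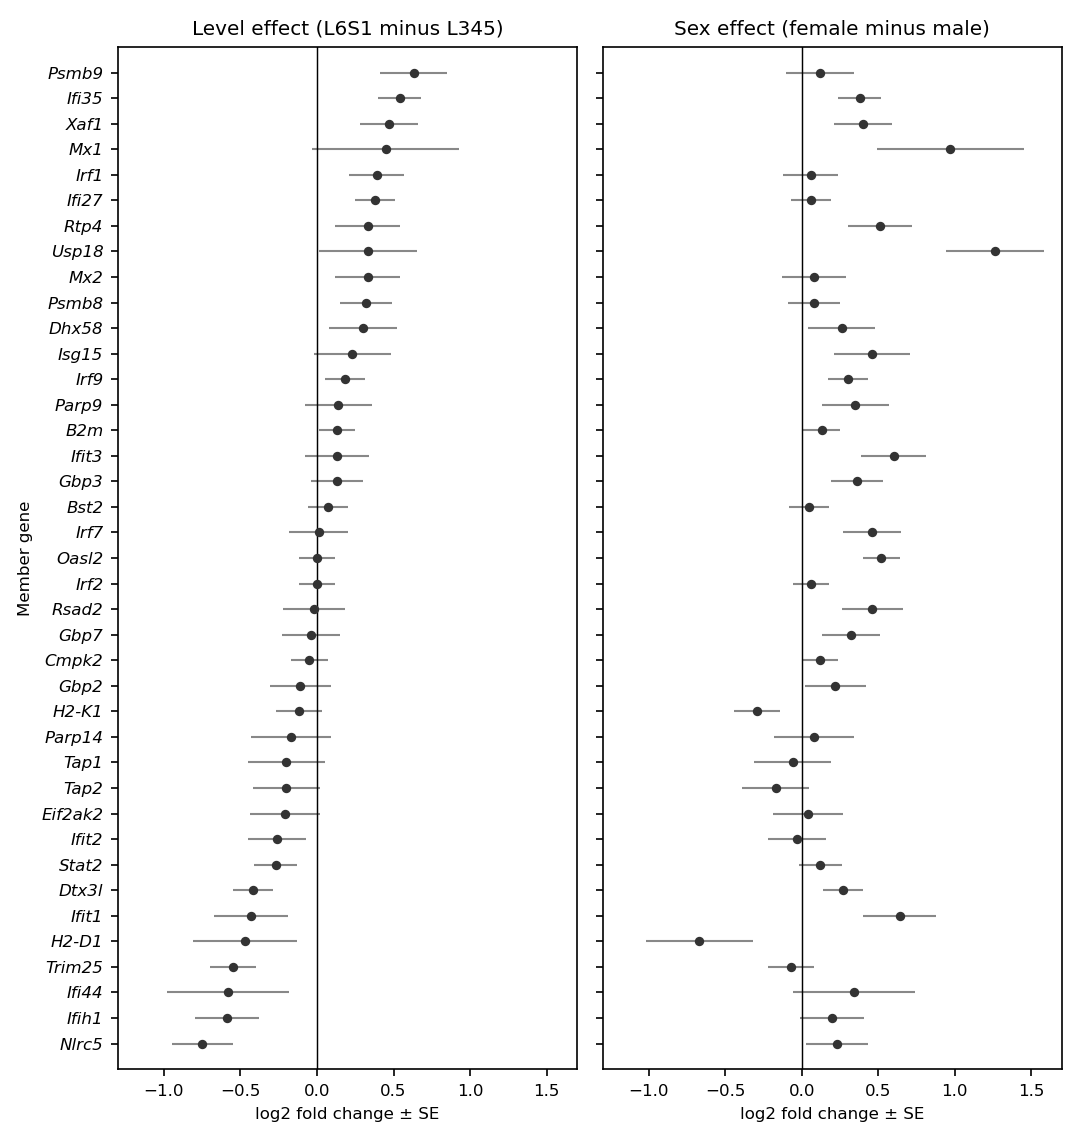
Level effect (left, L6S1 minus L345) and sex effect (right, female minus male) of the 39 tested members as log2 fold change ± SE from the edgeR fit, in the order of the level effect. Level effects spread on both sides of 0, from -0.75 to 0.63, while 33 of 39 sex effects are above 0, and no member passed the adjusted threshold in either.

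Among the ISG15 pathway members, Trim25, a ubiquitin ligase that activates the RNA sensor RIG-I, had 15.6, 12.3 and 19.1 CPM in female L6S1 and 16.9, 19.8 and 15.3 CPM in male L6S1 libraries. It had 28.3, 24.3 and 19.7 CPM in female L345 and 23.5, 22.1 and 26.4 CPM in male L345 libraries. Each L6S1 value was under the L345 mean for its sex, and the levels overlapped by a single library on each side. The effect of -0.55 ± 0.15 missed the threshold (edgeR adjusted p = 0.0605). Isg15, the ubiquitin-like modifier itself, had 1.73 to 4.73 CPM with a median of 2.40 in L6S1 libraries, against 1.95 to 2.90 CPM with a median of 2.44 in L345 libraries. Its effect was 0.23 ± 0.25 (edgeR adjusted p = 0.563) and turned to -0.29 without female L6S1 B and C together.

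Among the effector genes, Ifi35 was the member nearest to a call in the upward direction. Ifi35, an interferon-induced leucine zipper protein, had 54.6, 65.2 and 84.6 CPM in female L6S1 and 47.9, 48.2 and 57.6 CPM in male L6S1 libraries. It had 37.3, 45.4 and 54.4 CPM in female L345 and 38.4, 35.8 and 34.1 CPM in male L345 libraries. Every L6S1 library lay above the L345 mean of its sex, though the levels overlapped through female L345 D. The effect was 0.54 ± 0.14 with the smallest adjusted p of all members (edgeR adjusted p = 0.0545). In the annotation 16.8% of the exon bases of Ifi35 also belong to Gm11626 on the opposite strand, and the strand setting of the counting is not given. With per-library offsets for GC content and length the effect was 0.39 and was called, and it was 0.37 ± 0.13 without female L6S1 B and C together (edgeR adjusted p = 0.227).

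Xaf1, a partner of the apoptosis inhibitor XIAP, had 19.8 to 43.7 CPM with a median of 24.8 in L6S1 libraries, against 16.2 to 27.3 CPM with a median of 20.8 in L345 libraries. Its values above 40 CPM were those of female L6S1 B and C, and the effect of 0.47 ± 0.19 did not pass (edgeR adjusted p = 0.138). Without these libraries it was 0.05 ± 0.15. Ifi27 had 420 to 668 CPM with a median of 556 in L6S1 libraries, against 380 to 472 CPM with a median of 404 in L345 libraries. Its effect was 0.38 ± 0.13 (edgeR adjusted p = 0.103), with 5 of 6 L6S1 libraries above the L345 mean of their sex, and 0.15 ± 0.12 without female L6S1 B and C together. The IFIT genes, which bind viral RNA, lay the other way or near 0. Ifit1 had 39.0 to 90.7 CPM with a median of 48.4 in L6S1 libraries, against 39.6 to 146 CPM with a median of 66.5 in L345 libraries. The value of 146 CPM was that of female L345 C, and the effect of -0.43 ± 0.24 did not pass (edgeR adjusted p = 0.263). It was -0.20 ± 0.21 without female L345 C, and -0.69 ± 0.29 without female L6S1 B and C together. Ifit3 had an effect of 0.13 ± 0.21 (edgeR adjusted p = 0.714), which was -0.29 without female L6S1 B and C together. Oasl2, of the oligoadenylate synthase family, averaged 108 ± 24.8 CPM at L6S1 and 108 ± 26.6 CPM at L345 (SD, n = 6 each). Its effect was 0.00 ± 0.12 (edgeR adjusted p = 0.989).

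Rsad2, which encodes viperin, an enzyme that makes a chain-terminating nucleotide, had an effect of -0.02. Bst2, the tetherin that holds back budding virions, had 0.07, and the mitochondrial nucleotide kinase gene Cmpk2 had -0.05. Bst2 was among the steadiest members, at 12.4 to 17.2 CPM over all libraries, with a spread within groups of 0.14 (log2 SD), against a median of 0.35 over the members and 0.29 over all genes.

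The RNA sensors had effects of opposite sign, and neither passed the edgeR test. Ifih1, which encodes the sensor of long double-stranded RNA, had 2.81 to 5.86 CPM with a median of 4.65 in L6S1 libraries, against 4.74 to 9.38 CPM with a median of 6.30 in L345 libraries. All 6 L6S1 libraries were below the L345 mean of their sex, and the effect of -0.59 ± 0.21 did not pass (edgeR adjusted p = 0.109). It was called by limma-voom (adjusted p = 0.0333), and by edgeR with the replicate block (adjusted p = 0.0257) and without female L6S1 A (adjusted p = 0.0240), and was -0.39 without female L6S1 B and C together (adjusted p = 0.426). Dhx58, a regulator of that sensor, had an effect of 0.30 ± 0.22 (edgeR adjusted p = 0.392). Outside the members, 12 genes of nucleic acid sensing were tested and 1 was called, beside 2.33% of all genes. This was Tmem173, which encodes the DNA-sensing adaptor STING. It rose at L6S1, with 16.5 to 36.0 CPM in L6S1 libraries, against 10.4 to 15.8 CPM in L345 libraries (0.98 ± 0.19, edgeR adjusted p = 0.0192). Its adjusted p missed the threshold in 6 of the 12 leave-one-out fits (at most 0.0713, without female L345 B) and without female L6S1 B and C together (adjusted p = 0.0700), passed within the first title form (adjusted p = 0.00575), and missed it with the title form as a term (adjusted p = 0.0579).

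None of the transcription factors passed the edgeR test. Stat2 had 51.3 to 86.9 CPM with a median of 67.9 in L6S1 libraries, against 63.0 to 106 CPM with a median of 83.7 in L345 libraries. The effect was -0.27 ± 0.14 (edgeR adjusted p = 0.228), with 6 of 6 L6S1 libraries below the L345 mean of their sex, and limma-voom called it (-0.38, adjusted p = 0.0428). Irf1, an early activator of class I genes, averaged 44.8 ± 6.31 CPM at L6S1 and 34.2 ± 9.62 CPM at L345 (SD, n = 6 each), an effect of 0.39 ± 0.18 (edgeR adjusted p = 0.189). Irf7, the amplifier of type I interferon, had 3.81 to 6.75 CPM in L6S1 libraries, against 2.98 to 7.38 CPM in L345 libraries, and an effect of 0.01 ± 0.19 (edgeR adjusted p = 0.968). Irf2 and Irf9 had effects of 0.00 and 0.18.

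The guanylate-binding proteins, GTPases that attack vacuoles of pathogens, had effects of -0.11 (Gbp2), 0.13 (Gbp3) and -0.04 (Gbp7). Dtx3l, a ubiquitin ligase that pairs with PARP9 in DNA repair and interferon signalling, had 9.70 to 16.7 CPM with a median of 14.0 in L6S1 libraries, against 16.4 to 21.4 CPM with a median of 18.0 in L345 libraries. The levels touched only between 16.4 and 16.7 CPM, and the effect of -0.42 ± 0.13 missed the threshold (edgeR adjusted p = 0.0878). Its partner Parp9 had an effect of 0.14 and Parp14 one of -0.17. Of 40 other interferon-stimulated genes tested, with a median of 0.15, 1 rose and 0 fell, beside 1.45% and 0.877% of all genes. This was Ube2l6, the conjugating enzyme of ISG15, with 64.6 to 126 CPM in L6S1 libraries, against 45.3 to 63.8 CPM in L345 libraries (0.79 ± 0.15, edgeR adjusted p = 0.0163). It missed the threshold in 4 of the 12 leave-one-out fits and without female L6S1 B and C together (adjusted p at most 0.0700). Of 5 other interferon-inducible GTPases, Irgm1 rose (0.87 ± 0.19, edgeR adjusted p = 0.0310), with its 2 highest values of 26.6 and 22.3 CPM in female L6S1 B and C, and its adjusted p was 0.205 without them, 0.102 with the title form as a term and over the threshold in 8 of the 12 leave-one-out fits.

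Class I presentation held 2 of the 3 most abundant members per kilobase, B2m and H2-D1, and H2-D1 had the widest spread within groups of all tested members (0.75, log2 SD). B2m had 208 to 378 CPM with a median of 267 in L6S1 libraries, against 231 to 287 CPM with a median of 254 in L345 libraries. The effect was 0.13 ± 0.12 (edgeR adjusted p = 0.516) and -0.03 without female L6S1 B and C together. H2-K1 (chr17:33996017-34000333, minus strand) had 63.3, 33.7 and 63.9 CPM in female L6S1 and 84.9, 68.9 and 82.5 CPM in male L6S1 libraries. It had 70.2, 77.9 and 61.0 CPM in female L345 and 74.9, 66.2 and 73.0 CPM in male L345 libraries. Apart from female L6S1 B the libraries of both levels spanned one range, and the effect was -0.12 ± 0.15 (edgeR adjusted p = 0.635).

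H2-D1 (chr17:35262730-35267499, plus strand, GRCm38) had 351, 47.5 and 92.4 CPM in female L6S1 and 438, 370 and 514 CPM in male L6S1 libraries. The 6 L345 libraries had 314 to 447 CPM with a median of 362. Female L6S1 B and C thus lay far below the other 10 libraries, which spanned 314 to 514 CPM. The level effect was -0.47 ± 0.34 (edgeR adjusted p = 0.388), and 0.08 ± 0.13 without these libraries together. Without female L6S1 A, which leaves the female L6S1 group with these libraries alone, it was -1.08 ± 0.17 and was called (edgeR adjusted p = 0.000827). H2-D1 is among the 473 genes with this pattern. Pdia3, a chaperone of the class I loading complex outside the members, is another, at 91.7 and 78.5 CPM in female L6S1 B and C, against 784 to 891 CPM in the other libraries. H2-D1 was the single member below the other libraries in both (15.5% of all genes), and 12 of 39 members were above the other libraries in both (11.7% of all genes). The part of these libraries' general departure in the H2-D1 values was not tested.

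**Figure D3:**
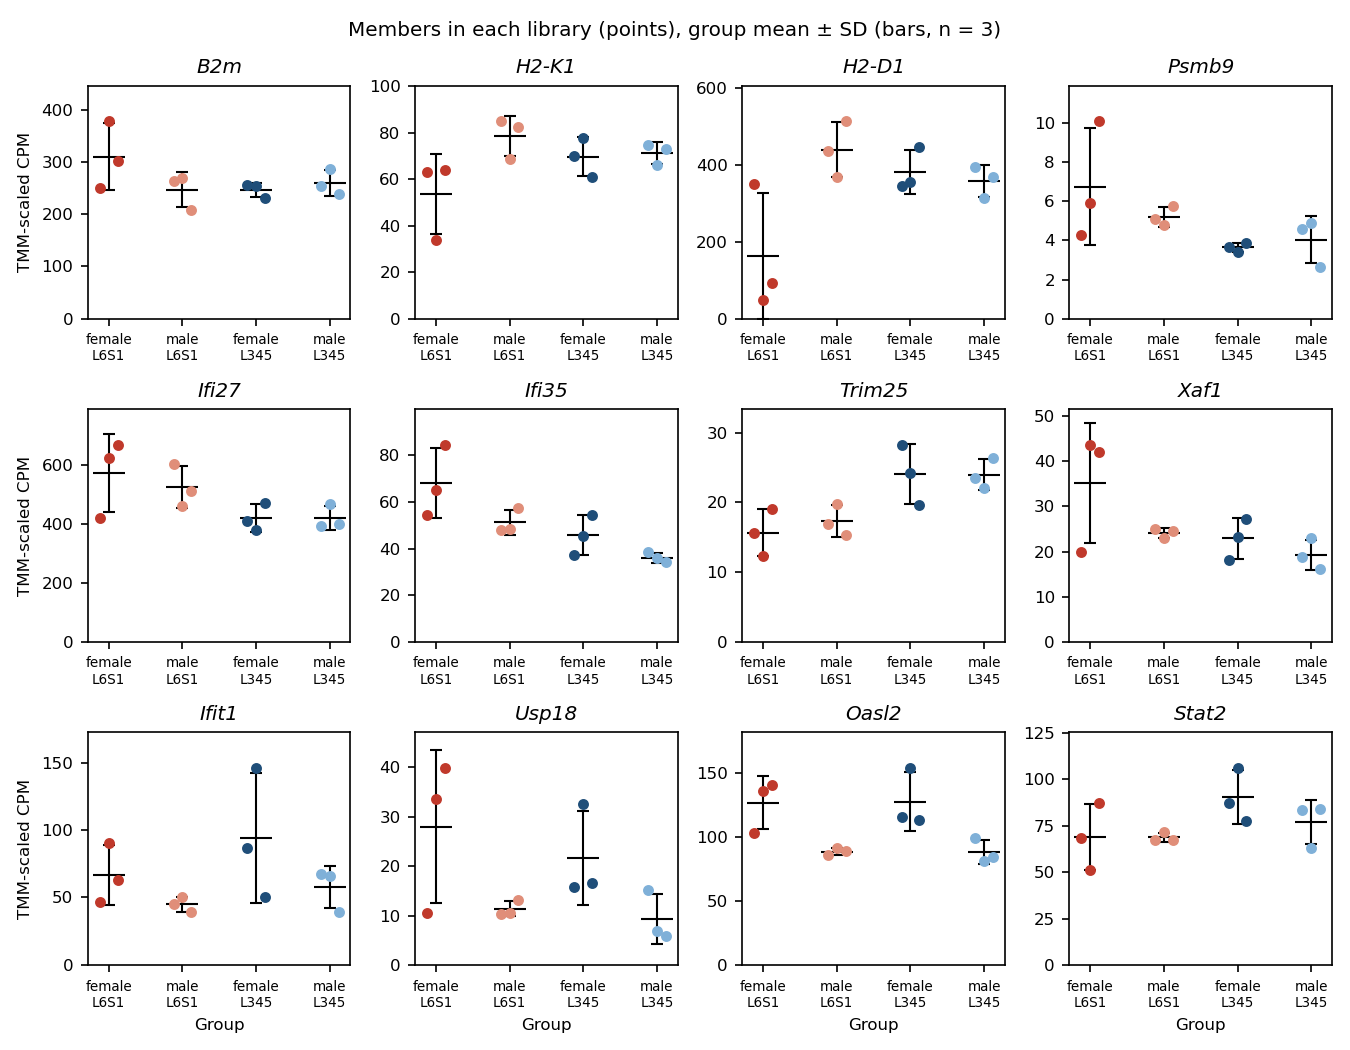
TMM-scaled CPM of 12 members in each library (points) with the group mean ± SD (n = 3), L6S1 groups left of L345 groups and each axis from 0. Female L6S1 B and C are at 47.5 and 92.4 CPM for H2-D1, where the other 10 libraries are at 314 to 514 CPM, and Oasl2 and Usp18 are higher in most female than in most male libraries.

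The immunoproteasome subunit Psmb9, which helps to cut peptides for class I molecules, had 4.27, 5.91 and 10.1 CPM in female L6S1 and 5.08, 4.78 and 5.79 CPM in male L6S1 libraries. It had 3.67, 3.40 and 3.86 CPM in female L345 and 4.58, 4.92 and 2.65 CPM in male L345 libraries. All 6 L6S1 libraries lay above the L345 mean of their sex, female L6S1 C highest, and the effect of 0.63 ± 0.22 did not pass (edgeR adjusted p = 0.102). It was the largest positive effect of the members, and 0.29 ± 0.21 without female L6S1 B and C together. Psmb8, its partner subunit, had 0.32 ± 0.17, and the peptide transporters Tap1 and Tap2 both had -0.20. Nlrc5, the transactivator of class I genes, had 0.873 to 1.91 CPM in L6S1 libraries, against 1.69 to 2.93 CPM in L345 libraries. Its effect was the most negative of the members, -0.75 ± 0.20, and missed the threshold (edgeR adjusted p = 0.0605).

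Among 22 other tested class I presentation genes 4 rose and 0 fell at L6S1, with a median of 0.39. Over all tested genes 1.45% rose and 0.877% fell, with a median of -0.06. Psmb10, the remaining immunoproteasome subunit, had 71.2 to 139 CPM in L6S1 libraries, against 56.1 to 70.2 CPM in L345 libraries (0.60 ± 0.15, edgeR adjusted p = 0.0484). Psmb6 (0.62 ± 0.15, edgeR adjusted p = 0.0483) and Psmb7 (0.56 ± 0.14, edgeR adjusted p = 0.0481) are subunits of the standard proteasome rather than of the interferon-induced one. Hfe, a class I-like regulator of iron uptake, had 3.74 to 5.70 CPM in L6S1 libraries, against 2.19 to 3.09 CPM in L345 libraries (0.75 ± 0.17, edgeR adjusted p = 0.0386). Each of the 4 missed the threshold in 9 or 10 of the 12 leave-one-out fits (adjusted p at most 0.146), and all were lost without female L6S1 B and C together (adjusted p between 0.138 and 0.253) and with the title form as a term (between 0.0912 and 0.133).

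Some marker genes of immune and connective tissue cells also passed the edgeR test between the levels, as 2.33% of all tested genes did. The 14 macrophage markers summed to 6.65 to 72.9 CPM in L6S1 libraries, against 4.01 to 6.04 CPM in L345 libraries, with female L6S1 C at 72.9 and no other library above 9.92 CPM. Of their 7 tested genes 1 rose (C1qb, of complement), with a median effect of 1.90. The 10 MHC class II genes summed to 18.5 to 218 CPM in L6S1 libraries, against 10.5 to 14.7 CPM in L345 libraries. Of the 7 tested, 4 rose (Cd74, H2-Aa, H2-Ab1 and H2-DMb1). Their effects were 1.59 to 1.81 without female L6S1 B and C together. The effect of Cd74 was 5.40 ± 0.98 in females and 0.31 ± 0.91 in males. The others had 1.43 to 1.61 in males, and none of the 4 passed there (edgeR adjusted p at least 0.395). Without a filter Cd74, H2-Aa and H2-Ab1 missed the threshold (edgeR adjusted p between 0.0794 and 0.114). With the title form as a term none of the 4 passed (adjusted p between 0.0562 and 0.145). Each of these 4 missed the threshold in 4 to 8 of the 12 leave-one-out fits (adjusted p at most 0.118), and the effect of Cd74, the class II invariant chain, was 2.86 ± 0.65 with all libraries and 1.52 ± 0.23 without female L6S1 C. T and NK cell markers summed to 3.78 to 10.4 CPM in L6S1 libraries, against 2.25 to 3.54 CPM in L345 libraries, and of their 2 tested genes Trac, a T cell receptor gene, rose. Of these 12 markers Cd8a was at 0 in every library and the CD3 genes never exceeded 3 counts. The 9 fibroblast markers summed to 128 to 337 CPM in L6S1 libraries, against 72.9 to 98.7 CPM in L345 libraries, and of their 8 tested genes 1 rose, with a median effect of 0.29. This was Dcn, which encodes decorin of the extracellular matrix, and it made up most of the sum. It had 112 to 283 CPM in L6S1 libraries, against 57.6 to 82.8 CPM in L345 libraries. C1qb, Trac and Dcn each missed the threshold in 0 of the 12 leave-one-out fits. Of the 2 tested genes each of the pan-leukocyte, B cell and neutrophil lists none passed. Endothelial markers overlapped, at 11.3 to 45.9 CPM in L6S1 and 14.8 to 22.3 CPM in L345 libraries, as did satellite glia markers at 807 to 1842 CPM in L6S1 and 1276 to 1769 CPM in L345 libraries. Of the 8 tested satellite glia markers Cadm2, a cell adhesion gene, fell, with 5.78 to 11.6 CPM in L6S1 libraries, against 12.2 to 20.4 CPM in L345 libraries (-0.86 ± 0.19, edgeR adjusted p = 0.0350). It missed the threshold in 9 of the 12 leave-one-out fits (adjusted p at most 0.113), without female L6S1 B and C together (adjusted p = 0.172) and with the title form as a term (adjusted p = 0.105). Female L6S1 B and C had the lowest satellite glia sums, 807 and 842 CPM, and the highest sums of myelinating Schwann cell markers, 3936 and 3830 CPM, where no other library exceeded 3043 CPM. The part of these cells' RNA in the values of the members was not tested.

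**Figure D4:**
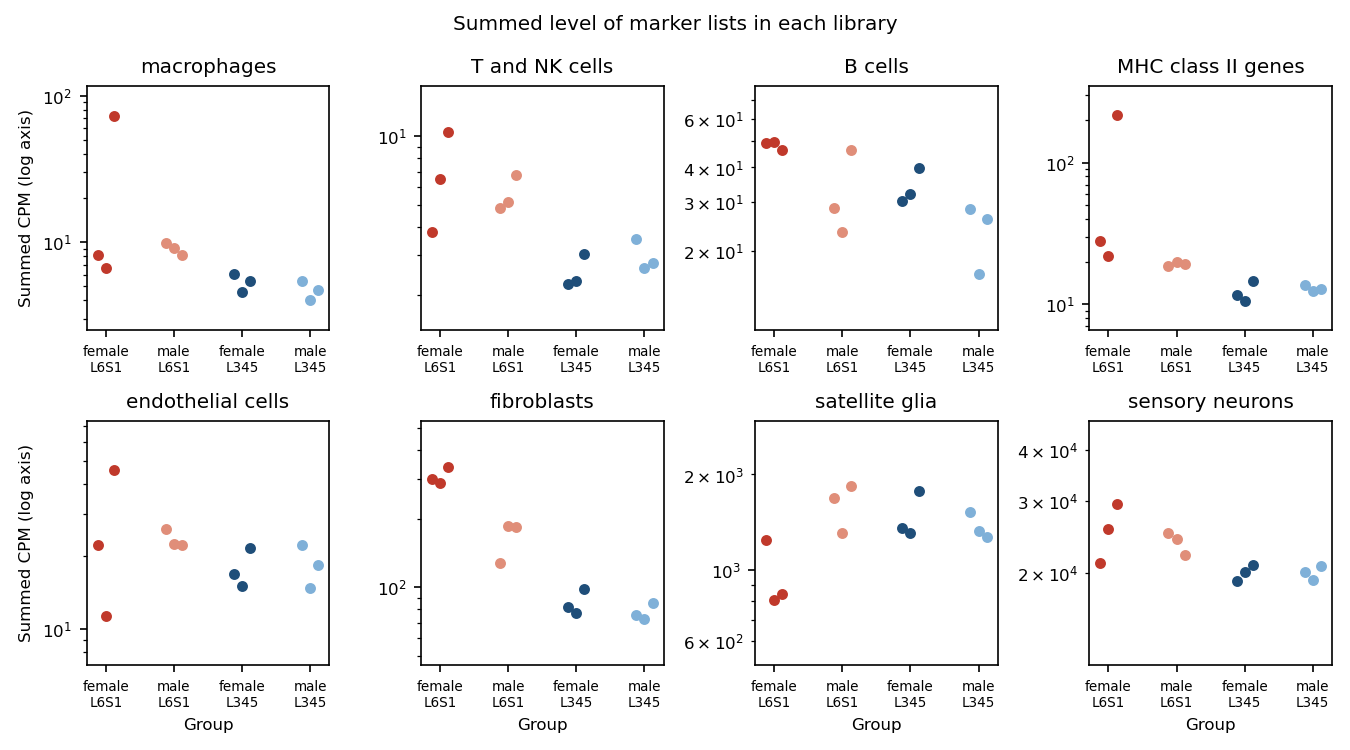
Summed CPM of 8 marker lists in each library on log axes, L6S1 groups left of L345 groups. Macrophage and class II sums are highest in female L6S1 C, at 72.9 and 218 CPM, and fibroblast sums, mostly Dcn, of all L6S1 libraries lie above those of the L345 libraries.

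No member passed the test within either sex. In males the level effect, male L6S1 minus male L345, called 0 members by edgeR, where 34 of all tested genes (0.222%) were called. At an unadjusted p under 0.05 there were 4 members (10.3%; Trim25, Ifi35, Dtx3l and Nlrc5), beside 8.83% of all genes. DESeq2 called 0 members, beside 0.707% of all genes. The limma-voom fit called 5 (12.8%), beside 12.2% of all genes. In females 0 members were called by edgeR, where 55 of all tested genes (0.360%) were. There were 8 members at an unadjusted p under 0.05 (20.5%), beside 24% of all genes. DESeq2 called 0 members, beside 4.91% of all genes, and limma-voom called 0, beside 0.340%. Without female L6S1 A the female count was 10 (25.6%), beside 24.5% of all genes.

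The level effect was also compared between the sexes, as that in females minus that in males. By edgeR 0 members and 0% of all genes were called, and 4 members had an unadjusted p under 0.05 (10.3%, beside 4.67% of all genes). DESeq2 and limma-voom called 0 members, each beside 0.0131% of all genes. Rsad2 had 4.21, 9.65 and 9.01 CPM in female L6S1 and 3.89, 4.32 and 3.61 CPM in male L6S1 libraries, against 4.95, 5.59 and 5.87 CPM in female L345 and 5.95, 6.65 and 4.38 CPM in male L345 libraries. Its female effect was above its male effect by 1.01 ± 0.40 (edgeR adjusted p = 0.871), and by 0.14 ± 0.37 without female L6S1 B and C together. For H2-D1 the difference was -1.52 ± 0.69 (edgeR adjusted p = 0.871), -0.42 ± 0.26 without female L6S1 B and C together, and -2.75 ± 0.34 without female L6S1 A, where it was called along with Rsad2, beside 5.21% of all genes. The members' median difference was 0.20 with all libraries and -0.19 without female L6S1 B and C together.

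Most members had higher values in females, and none passed the test. The sex effect is female minus male with the levels weighted equally. By edgeR 0 members were called, where 9 of all tested genes (0.0589%) were. DESeq2 called 2 (5.13%; Oasl2 and Usp18), beside 0.203% of all genes, and limma-voom 0, beside 0.0654%. Of 39 members 33 (84.6%) were positive with a median of 0.22, beside 49.3% and 0.00 over all genes. At an unadjusted p under 0.05 there were 10 members (25.6%, beside 5.96% of all genes), each higher in females: Usp18, Ifit1, Ifit3, Ifi35, Rsad2, Rtp4, Oasl2, Irf7, Irf9 and Gbp3. These were named after their values were seen.

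Oasl2 had the smallest adjusted p. It had 103, 136 and 141 CPM in female L6S1 and 116, 154 and 113 CPM in female L345 libraries, against 85.8, 91.2 and 88.9 CPM in male L6S1 and 99.3, 81.5 and 84.5 CPM in male L345 libraries. It was the single member in which every female library was above every male library, as the sexes did not overlap for 35 of all tested genes (0.229%), and the effect of 0.52 ± 0.12 did not pass (edgeR adjusted p = 0.456). Usp18, the protease that removes ISG15 and restrains the type I receptor, had 10.5, 33.6 and 39.9 CPM in female L6S1 and 15.7, 32.6 and 16.6 CPM in female L345 libraries. It had 10.4, 10.6 and 13.2 CPM in male L6S1 and 15.2, 6.90 and 5.79 CPM in male L345 libraries. Of the female libraries 3 stood above 30 CPM and no male library exceeded 15.2 CPM (1.26 ± 0.32, edgeR adjusted p = 0.594). Ifit1 had 46.6 to 146 CPM with a median of 74.7 in females, against 39.0 to 67.1 CPM with a median of 47.8 in males (0.64 ± 0.24, edgeR adjusted p = 0.764). Ifi35 had 37.3 to 84.6 CPM in females, against 34.1 to 57.6 CPM in males (0.38 ± 0.14, edgeR adjusted p = 0.764). Class I heavy chains had the opposite sign, at -0.67 ± 0.35 for H2-D1 and -0.29 ± 0.15 for H2-K1 (edgeR adjusted p = 0.764 each). Without female L6S1 B and C together these were -0.12 and -0.17, and the effects of Oasl2, Usp18, Ifit1 and Ifi35 were 0.38, 0.56, 0.39 and 0.22.

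The sex effects moved with single libraries. Without female L6S1 B and C together, 24 of 40 tested members were positive (median 0.07), beside 50.1% of all genes. Without male L345 C 30 of 39 were positive (median 0.15), beside 49.6% of all genes. In that fit 6 members had an unadjusted p under 0.05, beside 4.33% of all genes. Without female L345 C 32 of 39 were positive (median 0.14), beside 48.5% of all genes. In that fit 5 members had an unadjusted p under 0.05, beside 3.97% of all genes. Within the first title form 25 of 40 were positive (median 0.09), beside 49.3% of all genes. Without female L6S1 A 7 members were called, beside 6.32% of all genes (Ifit3, Oasl2, Rsad2, Rtp4, Usp18 and Xaf1 higher, H2-D1 lower in females).

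Members that were high or low together came mostly from few libraries. Female L6S1 B was the highest library for 11 members (28.2%, beside 15.5% of all genes). It was also the lowest for 6 (15.4%, beside 23.7%): Trim25, Stat2, Tap1, Tap2, H2-K1 and H2-D1. Female L6S1 C was highest for 10, near the share of all genes (25.6%, beside 20.7%). Female L345 C was highest for 7 (17.9%, beside 7.51%): Ifit1, Oasl2, Ifih1, Irf7, Stat2, Parp14 and Dtx3l. Male L345 C was lowest for 14 members (35.9%, beside 4.76%), among them Usp18 at 5.79 CPM and Ifit3 at 7.52 CPM. The median deviation of the members from their own 12-library mean was 0.31 in female L6S1 B, 0.21 in female L6S1 C, 0.22 in female L345 C and -0.28 in male L345 C (log2), beside -0.04, -0.02, 0.03 and 0.03 over all genes.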

How the data were processed

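RNA was measured in 12 libraries of EGFP-sorted DRG cells, made from 10 ng of RNA with 12 cycles of library PCR and no molecular identifiers, per the labels' protocols. The floors of 3 counts cover counting error only, whereas SD and SE values include the spread between pools. The authors deposited per library a table of counts, CPM and RPKM. The submitters' processing notes name Subread as aligner, featureCounts 1.4.5 as counter and GRCm38.p2 as build. The annotation, the strand setting and the version of Subread are not stated in the sources used here. The deposited counts were the values tested. In all libraries the deposited CPM matched counts over the table's total and the deposited RPKM matched that CPM per kilobase. Neither was tested. RPKM in the text is TMM-scaled CPM per kilobase of the deposited gene length.

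Symbols came from GENCODE M21 for 40254 genes (97.3%), and 274 of 278 other listed genes were matched. Gbp5, Gbp6, Gbp10 and H2-T9 were not analysed here. Tests used edgeR 4.0.16 under R 4.3.3 (TMM, filterByExpr by group, robust quasi-likelihood fit of the 4 group means, 8 residual degrees of freedom), with Benjamini-Hochberg adjustment over 15281 genes and calls under 0.05. Alternatives used DESeq2 1.42.0 and limma 3.58.1, other scalings and filters, libraries left out, a title form term, GC and length offsets, and a replicate block. Same-letter libraries deviated together (r over 0.1) in 7 of 15 pairs, with r from -0.199 to 0.311. Pairs of libraries with different letters, from different groups, had r from -0.332 to 0.338. These values do not settle whether the letters pair the libraries. The code was tested on simulated counts.

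The members and lists were chosen with earlier results of these data known. Members described in full were the 5 largest positive and 5 largest negative level effects at a mean of at least 2 CPM, the 6 highest in RPKM, and Isg15, Irf7, Stat2, Ifit3, B2m, H2-K1 and H2-D1. Others in the text were chosen after their values were seen. Of the other lists up to 4 called genes were named.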

Additional observations from a re-analysis of the deposited data

Results flagged for a closer look

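Over the 39 tested members, each of 78 sets of 6 libraries of one level was searched for a single library whose gap to the nearest other exceeded 0.625 of the set's range (Dixon's 95% critical value for 6). There were 5 such libraries, where 3.90 are expected by chance at 1 in 20. Among L6S1 libraries, Ifit3 was 25.6 CPM in female L6S1 B, where the other 5 had 9.06 to 14.2 CPM. Gbp7 was 28.6 CPM in the same library, where the others had 14.1 to 17.3 CPM. Parp9 was 8.43 CPM there, where the others had 3.55 to 4.33 CPM. Psmb9 was 10.1 CPM in female L6S1 C, where the other L6S1 libraries had 4.27 to 5.91 CPM. Among L345 libraries, Dhx58 was 6.13 CPM in female L345 C, where the others had 2.85 to 3.86 CPM.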

How the results depend on the processing

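For the level effect, the count of members called was 0 with TMM scaling. It was 1 with RLE scaling, with upper-quartile scaling, with a filter of 1 CPM in 6 libraries and with GC and length offsets (Ifi35 each time), 1 within the first title form, 2 without a filter, 5 with DESeq2 and 9 with limma-voom. The replicate block called 5 (Dtx3l, Ifi35, Ifih1, Ifit2 and Trim25), though whether the letters pair the libraries is not settled. The letter D occurs only in female L345 D, so the block also sets that library aside. Leaving it out without a block called 2 members. With the title form as a term and without female L6S1 B and C together it was 0. Leaving out each library in turn gave 0 to 10 members.

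The count over all genes, 356, was 545 with upper-quartile scaling, 1518 with DESeq2, 3268 with limma-voom, 841 without a filter, 125 with the title form as a term, 1985 with the replicate block, 137 without female L6S1 B and C together, 749 with GC and length offsets, and 80 to 4031 with a library left out. In males limma-voom called 5 members, and every fit with a library left out gave 0. In females leaving out a library gave 0 to 10, in the interaction 0 to 2 and in the sex effect 0 to 7, with the highest count without female L6S1 A each time, and DESeq2 called 2 in the sex effect. The block changed no other call of members. The causes were not tested.

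Of 391 level effects of the 17 members described in full under 23 alternatives, 347 stayed on their side of the threshold with the same sign or within their spread, 34 passed the threshold in the same direction and 10 moved by more than their spread. The sign differed under some alternative for 7 of the 17. Low depth limits Mx1, Ifi44 and Oas2, which lie near 1 CPM or below.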
